A study of Mus musculus with 2 samples.

Results

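The genes described here encode the nuclear-coded subunits of the mitochondrial respiratory chain and of ATP synthase, measured in dorsal skin of newborn mice. They were chosen by name alone: non-control probes whose gene name begins with Nduf, Sdha, Sdhb, Sdhc, Sdhd, Uqcr, Cox4, Cox5, Cox6, Cox7, Cox8 or Atp5, leaving out Cox7a1, Cox8b, Cox6a2 and names beginning with Sdhaf. That rule found 90 gene names of 31093 on the array, covered by 124 probes of 39429. The members were 38 subunit genes of complex I, 4 of complex II, 8 of complex III, 15 of complex IV and 15 of complex V, with 7 assembly factors of complex I (names beginning with Ndufaf) and 3 names that fit a prefix without being a subunit (Atp5s, Atp5sl and the pseudogene Atp5c1-ps). Of the 90, 88 were measured, which means that on both arrays at least 1 probe stood well above background without saturation. Cox7b2 and Cox8c, isoforms known from testis, were well above background on neither array.

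The study compared mice lacking Sdr9c7 (Sdr9c7-/-) with wild type mice, all on the C57BL/6J background and at postnatal day 0. Sdr9c7 is a dehydrogenase of the epidermis that acts on acylceramides of the skin barrier. Each genotype was 1 single-colour array, hybridised with RNA pooled in equal amounts from the skins of 5 animals, so the spread between animals is not in the data and every value below is a single reading without a replicate check. The labels name the tissue as skin whereas the design text says epidermis, and the markers of muscle, fat and dermis given further on were readily measured. The Sdr9c7 probe went from 0.324 in wild type to 0.0478 in knockout skin, a log2 difference of −2.76. That probe lay in a band of the slide marked for its scatter in earlier work, and leaving out such bands removes it. The labels do not say which exons were removed, so whether that probe lies in the deleted part is unknown. Signals throughout are relative to the 75th percentile of each array, so that 1 equals that percentile, and log2 differences are knockout minus wild type.

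The respiratory chain sits in the inner mitochondrial membrane. Complex I (NADH dehydrogenase) and complex II (succinate dehydrogenase) pass electrons to ubiquinone, complex III passes them on to cytochrome c, and complex IV (cytochrome c oxidase) hands them to oxygen, while complexes I, III and IV pump protons that drive ATP synthase, complex V. Most subunits are encoded in the nucleus and made in nearly all cells, but complex IV has subunits with paired genes, one general and one restricted to heart, skeletal muscle and brown fat. The core subunits encoded by mitochondrial DNA were looked for under 26 names, of which 0 were on the array, so those subunits were not analysed. In whole skin, striated muscle and fat carry many mitochondria beside the epidermis and dermis.

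A contrast described further on lies between such paired genes. The first 30 bases of the probes that read them, each 60 bases long, show how far the probes of such pairs differ in sequence. The longest run of bases shared by the whole probes of Cox6a1 and Cox6a2 was 4, and for Cox7a2 against Cox7a1 and Cox8a against Cox8b it was at most 6. Probes were not compared with the transcript of the paired gene, so whether a probe also reads that gene was not tested. Probe positions in the scanner files are on mm9, and no annotation of that build was used, so probes were not placed within exons.
Cox6a1 (general, chr5:115795726-115795785): ggaccacgaaaaccctttggatgctaagct
Cox6a2 (heart and skeletal muscle, chr7:135349160-135349219): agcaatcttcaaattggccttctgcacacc
Cox8a (general, 1 of its 2 probes, chr19:7289652-7289708): tattggctctgcttggtggggtcccccttt
Cox8b (heart, skeletal muscle and brown fat, chr7:148084852-148084911): ctataaaaagagctccgcagcatgaagttg
Cox7a2 (general, chr9:79603215-79603274): ctttggggatcaatatttattgatgtgtat
Cox7a1 (heart, skeletal muscle and brown fat, no position given in the files): acaacgtcctgtacagactgaccatgacgc

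The respiratory chain as a whole was close to level between the genotypes and slightly lower in the knockout. The median log2 difference over the 88 measured members was −0.09, 6.21% lower on the linear scale, against a median of −0.04 over all 22749 measured genes. A value below 0 was found for 73 of the 88 members (83.0%), beside 56.9% of all genes. Such a share was not particular to the chain: 63 of 79 measured genes of the cytosolic ribosome (79.7%) were below 0, with a median of −0.05. Few members lay far from level: 86 of 88 were within 1.2-fold, beside 68.8% of all genes. Most subunit transcripts are bright, so the same shares are also given over the 3246 genes whose mean signal was at least 4, of which 86.7% were within 1.2-fold and 62.1% below 0. The 67 members that bright had a median of −0.09, against −0.04 for the other bright genes.

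At least 1.2-fold lower was 1 member, Atp5o, beside 19.7% of all genes and 9.27% of the bright genes. At least 1.2-fold higher was 1 member, Ndufa8, beside 11.5% of all genes and 4.07% of the bright ones. At least 1.5-fold lower were 0 members (6.07% of all genes, 2.46% of bright genes), and 0 were 1.5-fold higher (2.37% and 0.524%). Likewise 0 members were 2-fold lower (1.37% and 0.585%) or 2-fold higher (0.545% and 0.185%). With 1 array per genotype these are descriptions of fold size, and no test was run. The members' median stayed below 0 in each of the 12 other settings tried on scaling, background, filters, slide areas, names and probes, between −0.09 and −0.04, and 0.03 to 0.07 below the median of all genes in the same setting.

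**Figure D1:**
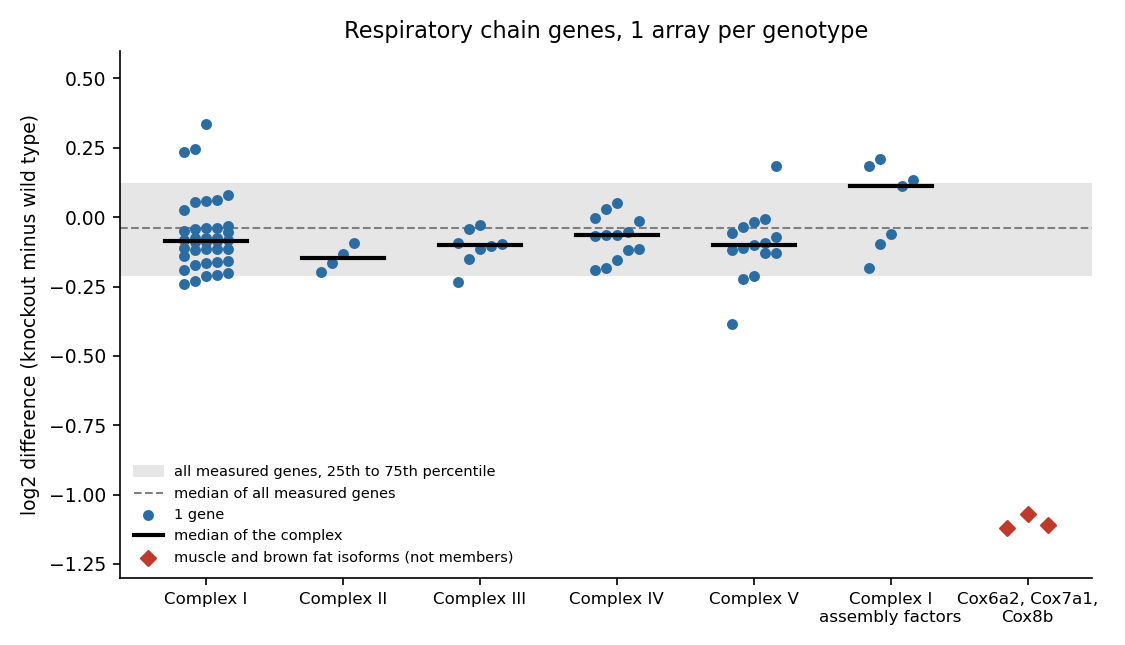
Log2 difference between knockout and wild type (vertical axis) for each measured gene of complexes I to V and for the complex I assembly factors, with the median of each as a black bar. The grey band spans the 25th to 75th percentile of all measured genes. Complex medians lie between −0.15 and −0.07, and the 3 muscle and brown fat isoforms (red diamonds, not members) lie near −1.1.

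How closely spots of a probe repeat within an array can be read from Uqcrc2, a core protein of complex III, whose probe was printed at 10 positions. The 10 spots read between 15.4 and 16.7 in the wild type and between 14.2 and 14.9 in the knockout, so the spots of the arrays did not overlap. Their means were 16.0 ± 0.444 and 14.4 ± 0.261 (SD over 10 spots), and the difference was −0.15 ± 0.05 on the log2 scale, below 0 at 10 of 10 positions. Uqcrc2 was thus 1.11-fold lower on this knockout array by more than its spot error, which covers printing and scanning. That error leaves out labelling, hybridisation and scaling, which all spots of an array share, and the difference between pools of animals. In the other settings the Uqcrc2 difference ran from −0.15 to −0.10. Over 320 probes with at least 8 usable spots the median SD between spots was 0.06.

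**Figure D2:**
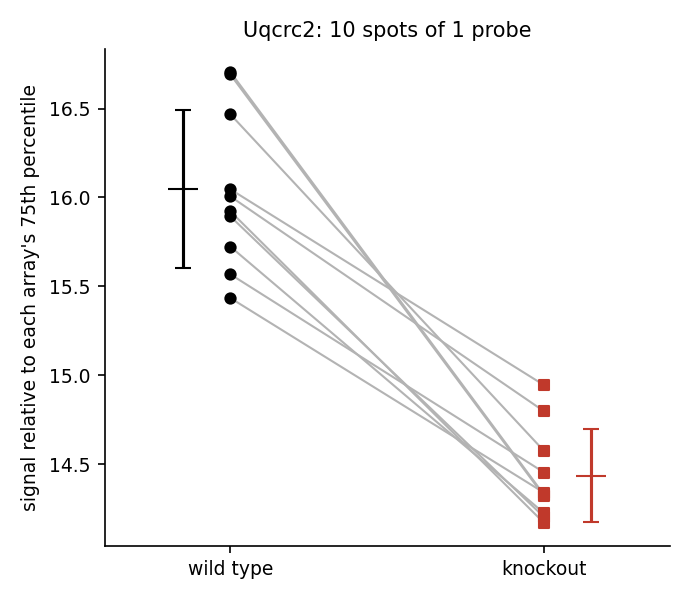
Signal of the Uqcrc2 probe at its 10 positions on the wild type array (black circles) and the knockout array (red squares), relative to the 75th percentile of each array. Lines join the same position, error bars are the mean and SD over spots, and the vertical axis does not start at 0. Every knockout spot lies below every wild type spot.

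Different probes of a gene varied more than spots of one probe. For the 25 members with at least 2 measured probes (59 probes), probes of 1 gene had a pooled SD of 0.13. Over all 5164 genes with at least 2 measured probes it was 0.25. Single-gene differences near or below these sizes are not distinguishable from probe error, and 1 SD is no limit above which they become so. All probes lay below 0 for 17 of the 25 members and above 0 for a further pair, Ndufb4 and Ndufaf4. The widest gap between probes was 0.56, in the assembly factor Ndufaf5, whose 2 probes read −0.10 and 0.47. Among the subunits, Cox7c had probes from −0.30 to 0.11 and Ndufv3 from −0.41 to −0.03.

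**Figure D3:**
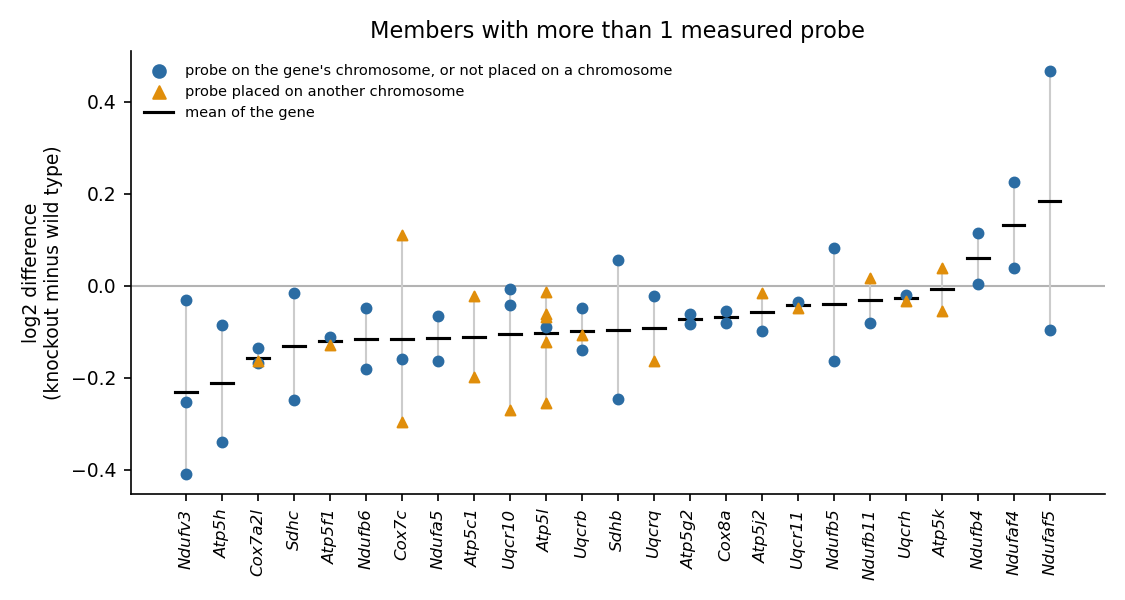
Log2 difference of each measured probe for the members with more than 1, ordered by the mean of the gene (black bar). Orange triangles are probes that the scanner files place on another chromosome than the gene. Probes of one gene differ by up to 0.56, and most means lie between −0.25 and 0.

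In complex I, which takes electrons from NADH, 30 of 38 subunits were below 0, with a median of −0.08. Over all genes 56.9% were below 0, and over the bright genes 62.1%. The 7 nuclear-coded core subunits, which hold the electron path of the complex, were all below 0, with a median of −0.11. Of these, Ndufv2 lay above 0 with median scaling (0.003) and with quantile normalization (0.004). Ndufs1, the largest of them and a carrier of iron-sulphur clusters, went from 12.1 to 10.5, a difference of −0.21. Ndufs3 went from 16.6 to 14.8 (−0.17). The flavin subunit Ndufv1 read 20.5 and 18.9 (−0.11), and its partner Ndufv2 read 12.4 and 12.1 (−0.04). Of the other iron-sulphur subunits, Ndufs7 stood at 14.7 and 13.8 (−0.09) and Ndufs8 at 2.52 and 2.43 (−0.05). These core genes therefore lay in a narrow range, from −0.21 to −0.04. Ndufs7 and Ndufv1 each had 1 probe, in a marked band of the slide, and neither has a value with those bands left out.

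The 31 accessory subunits of complex I, which surround the core and are needed for its assembly and stability, were wider in range, with a median of −0.08 and 23 below 0. Lowest was Ndufa6, from 8.13 to 6.88 (−0.24), followed by Ndufv3 at −0.23 as the mean of 3 probes. The bright Ndufv3 probe (21.3 in wild type) read −0.03. Its dimmer probes (0.586 and 0.0671) read −0.25 and −0.41, the dimmest lying in a marked band of the slide. Without the marked areas Ndufv3 stood at −0.14. Highest was Ndufa8, from 3.67 to 4.63 (0.33), followed by Ndufc1, from 14.1 to 16.7 (0.25). Ndufab1, which is also the mitochondrial acyl carrier protein, read 1.01 and 1.19 (0.23). Ndufa8 and Ndufc1 each had 1 probe, in bands of the slide marked for their scatter in earlier work on these arrays, and neither has a value with those bands left out. The part of the slide position in these 2 values was not tested. Among all members, 18 had a spot in such a band. Ndufa4l2, a paralog of Ndufa4 known as a hypoxia-induced gene and not a regular subunit, read 19.0 and 19.8 (0.06). Ndufa4 itself, now assigned to complex IV, stood at −0.09.

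The 7 assembly factors of complex I, proteins that help build the complex and are not part of it, had a median of 0.11 with 4 above 0, which became −0.0026 with normexp background correction and −0.061 with the brightest probe of each gene. Ndufaf2 went from 1.59 to 1.84 (0.21), and Ndufaf6 read 0.843 and 0.744 (−0.18). Ndufaf5, the dimmest, read 0.0280 and 0.0318 (0.19), and Ndufaf7 stood at −0.10. All 7 were within 1.2-fold.

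Complex II, the succinate dehydrogenase shared with the citric acid cycle, had a median of −0.15. Below 0 were 4 of 4 genes, beside 56.9% of all genes. Sdha, the flavoprotein, went from 11.3 to 10.1 (−0.17). Sdhb, the iron-sulphur subunit, read 10.7 and 9.99 (−0.09), with its 2 probes on opposite sides of 0, at −0.25 and 0.06. The membrane anchor Sdhc read 6.75 and 6.16 (−0.13), its probes at −0.25 and −0.02. Sdhd, the other anchor, read 11.3 and 9.82 (−0.20). The median of complex II thus rests on few genes, and for Sdhb and Sdhc on probes that differ.

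In complex III 8 of 8 subunits were below 0, beside 56.9% of all genes, with a median of −0.10. With quantile normalization Uqcr11 (0.008) and Uqcrh (0.046) lay above 0, as they did with median scaling and loess. The 3 larger proteins lay lowest: the Rieske iron-sulphur protein Uqcrfs1, from 11.7 to 9.92 (−0.23), and the core proteins Uqcrc2 (−0.15) and Uqcrc1, from 6.50 to 6.00 (−0.11). The 5 small subunits ran from −0.11 for Uqcr10 to −0.03 for Uqcrh, the hinge protein, which read 29.4 and 28.8. Uqcrc1 (−0.114) and Uqcr10 (−0.105) differ by far less than the SD between probes (0.13), so their order is not resolved. The Uqcr10 value is a mean of 3 probes. Its probe placed on another chromosome read −0.27, and those on its own chromosome read −0.01 and −0.04. Uqcr11 stood at −0.04. Cyc1, the cytochrome c1 of the same complex, does not carry the Uqcr name and was no member. It read 13.5 and 10.5, at −0.36 lower than any of the 8.

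Complex IV had a median of −0.07, with 11 of 13 measured genes below 0, beside 56.9% of all genes. Cox5a went from 34.7 to 30.4 (−0.19), and Cox4i1, the general form of a regulatory subunit, read 46.4 and 40.9 (−0.18). Highest were Cox7b, from 21.0 to 21.7 (0.05), and Cox6c, from 28.0 to 28.6 (0.03). Cox5b stood at −0.07 and Cox7c at −0.11. Cox7a2l, a relative of Cox7a2 that links complexes III and IV into supercomplexes, stood at −0.16, with 3 probes between −0.17 and −0.14.

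General forms and muscle or brown fat forms of 3 paired subunits of complex IV differed in fold. The part of tissue content in this difference was not tested. The general forms Cox6a1, Cox7a2 and Cox8a read 90.6 and 83.5 (−0.12), 14.96 and 14.3 (−0.06), and 37.0 and 35.3 (−0.07). Their counterparts of muscle and brown fat, which the naming rule leaves out, were 2.10-fold to 2.17-fold lower. Cox6a2, of heart and skeletal muscle, went from 16.5 to 7.61 (−1.12). Cox8b went from 4.19 to 1.94 (−1.11) and Cox7a1 from 2.07 to 0.984 (−1.07). Each of these 3 rests on 1 probe. The Cox8b probe lay in a marked band of the slide, and the gene has no value with those bands left out. Genes at least 2-fold lower made up 1.37% of all measured genes. Isoforms known from other tissues were near level: Cox4i2, of lung, read 0.413 and 0.409 (−0.01), and Cox6b2, of testis, read 0.753 and 0.751 (−0.00), next to the general Cox6b1 at −0.05.

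**Figure D4:**
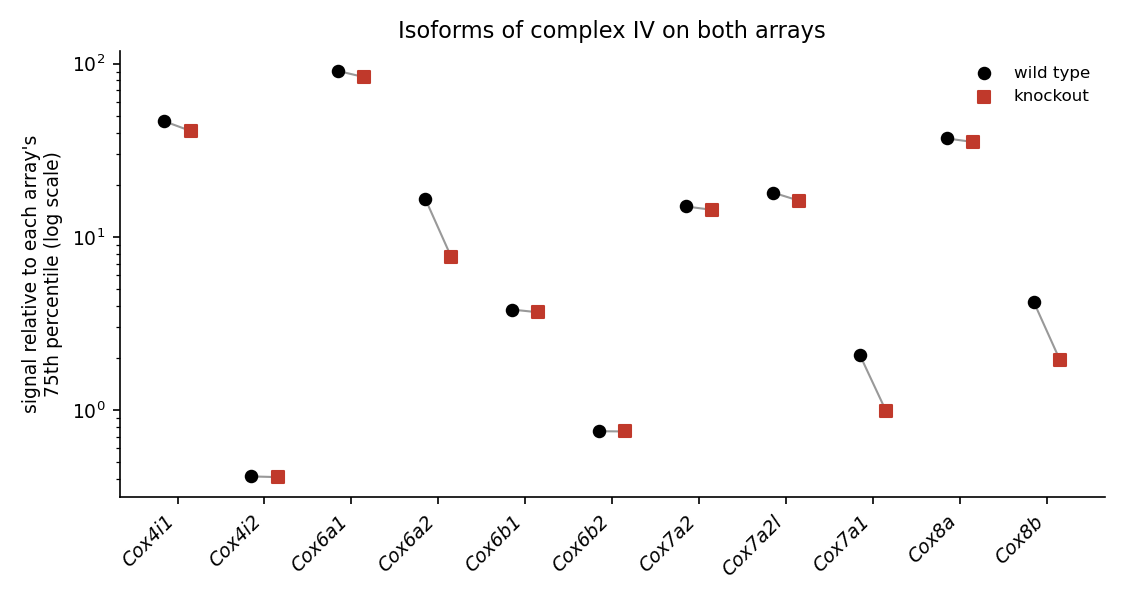
Signal of complex IV isoforms on the wild type array (black circles) and the knockout array (red squares), relative to the 75th percentile of each array, on a log axis. Lines join the arrays for 1 gene, and heights of different genes are read by different probes and are not comparable. Cox6a2, Cox7a1 and Cox8b slope down by 2.10-fold to 2.17-fold, and the other 8 genes are nearly flat.

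In complex V, the ATP synthase, 14 of 15 genes were below 0, beside 56.9% of all genes, with a median of −0.10. The 5 subunits of the catalytic F1 head were all below 0 in the main setting. With quantile normalization Atp5a1 (0.029) and Atp5b (0.003) lay above 0, and Atp5a1 also with median scaling (0.010) and loess (0.023). Atp5b, the catalytic beta subunit, went from 63.2 to 59.3 (−0.09), and Atp5a1, the alpha subunit, read 29.8 and 29.1 (−0.03). Atp5d, of the central stalk, read 11.8 and 10.1 (−0.22), while Atp5c1 went from 9.30 to 8.61 (−0.11) and Atp5e from 32.2 to 29.4 (−0.13). The only probe of Atp5d lay in a marked band of the slide, and the gene has no value with those bands left out. Both probes of Atp5c1 are placed on chromosome 13, close to the probe of the pseudogene Atp5c1-ps, whereas the gene is on chromosome 2. Whether they read the gene or the pseudogene was not tested. The c-ring that turns in the membrane is built from a protein encoded by 3 genes, of which Atp5g1 read 31.3 and 30.9 (−0.02), Atp5g2 read 49.8 and 47.4 (−0.07) and Atp5g3 read 37.4 and 34.2 (−0.13).

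The lowest member of the respiratory chain was Atp5o, of the stalk that holds the F1 head, from 9.90 to 7.59, which is 1.30-fold lower (−0.38). Its only probe is placed by the scanner files on chromosome 12, whereas the RefSeq table has the gene on chromosome 16. After Atp5d at −0.22 came Atp5h at −0.21, its 2 probes at −0.34 and −0.08. The only gene of complex V above 0 was Atp5j, a coupling factor, from 13.0 to 14.8 (0.18). The names Atp5s and Atp5sl, which are no ATP synthase subunits, stood at −0.19 and −0.12, and the pseudogene Atp5c1-ps at −0.22.

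The medians of the 5 complexes ran from −0.15 to −0.07, a span of 0.08, and whether they differ was not tested. Their order was not the same in every setting: without probes on another chromosome complex III stood at −0.053 and complex IV at −0.054. The median of each stayed below 0 under the 12 settings and under both other assignments of genes to complexes.

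Some probes are placed by the scanner files on another chromosome than their gene. Of the 124 member probes, 22 from 15 genes lay on an assembled chromosome other than that of the gene, and 4 genes (Atp5c1, Atp5k, Atp5o and Ndufs5) had no other kind. Both probes of Atp5g2, whose gene is on chromosome 15, are given on an unlocalised piece of chromosome 17 and were counted as having no position, so they are not among the 22. The 22 had a median of −0.06 with 18 below 0, and the other 100 measured probes had a median of −0.08 with 82 below 0. Atp5l, a membrane subunit of ATP synthase, shows how alike such probes are. Its 6 probes, 5 of them placed off the gene's own chromosome 9, gave −0.26 to −0.01. Of these, 4 hold the same stretch of 30 bases with 0 to 2 differences (capitals, against the commonest base at each position; mm9 positions of the whole probe).
Atp5l, chrX:35750466-35750525 (−0.07): gaccatgtgtaacgggactgctatctgaat
Atp5l, chr6:66696339-66696398 (−0.26): gaccatgtgtaacAggactgctatctgaat
Atp5l, chr10:95599587-95599646 (−0.12): gaccatgtgtaacgggacCgctatctgaat
Atp5l, chr6:105481860-105481919 (−0.01): gaccatgtgtaaAgAgactgctatctgaat

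Other mitochondrial genes give the setting. The 76 measured proteins of the mitochondrial ribosome had a median of −0.04, and 24 genes of the import machinery a median of −0.02. Both medians were close to that of all genes. At least 1.2-fold lower was 1 of the 76 (1.32%), beside 19.7% of all genes. The 18 enzymes of the citric acid cycle and pyruvate dehydrogenase, which supply the chain with NADH, had a median of −0.16, with 15 below 0. At least 1.2-fold lower were 3 of the 18 (16.7%), beside 19.7% of all genes, and 0 were that much higher. Lowest among them were Idh3b, from 4.16 to 3.23 (−0.36), and Idh3a, from 5.44 to 4.23 (−0.36), and highest were Ogdh (0.11) and Dlat (0.19). The 14 genes of fatty acid oxidation had a median of −0.18, with 5 (35.7%) at least 1.2-fold lower and 0 higher. The muscle form of carnitine palmitoyltransferase, Cpt1b, was lowest, from 0.308 to 0.166 (−0.89), while the liver and general form Cpt1a stood at −0.31. Eci1, a helper enzyme for unsaturated fatty acids, was second at −0.45, and the highest were Cpt2 (0.08) and Decr1 (0.24). Among 18 measured electron carriers and inlets the median was −0.07, from Adck3 (the current Coq8a), of ubiquinone synthesis, at −0.77 to Dhodh at 0.20. Assembly factors of complexes II to V had a median of 0.02 over 31 genes. Their highest, Sdhaf4 at 3.52, lay in a block of the slide marked in earlier work. The part of the slide position in that value was not tested. The member Ndufb6 also had a probe in that block, at −0.18, with its other probe at −0.05.

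Genes that regulate mitochondrial transcription were mixed, with a median of −0.08 over 17. At least 1.2-fold lower were 4 (23.5%), close to the 19.7% of all genes, and 2 (11.8%) were that much higher, beside 11.5%. Perm1, a muscle regulator of oxidative genes, went from 0.117 to 0.0534 (−1.14), and the coactivator Ppargc1a, rich in muscle and brown fat, read 0.0939 and 0.0436 (−1.11). Its relative Ppargc1b stood at 0.33. Nrf1, an activator of many subunit genes, read 0.234 and 0.280 (0.26), and Gabpa, of the other classical activator, stood at −0.05. Esrra, the oestrogen-related receptor alpha, stood at −0.27.

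**Figure D5:**
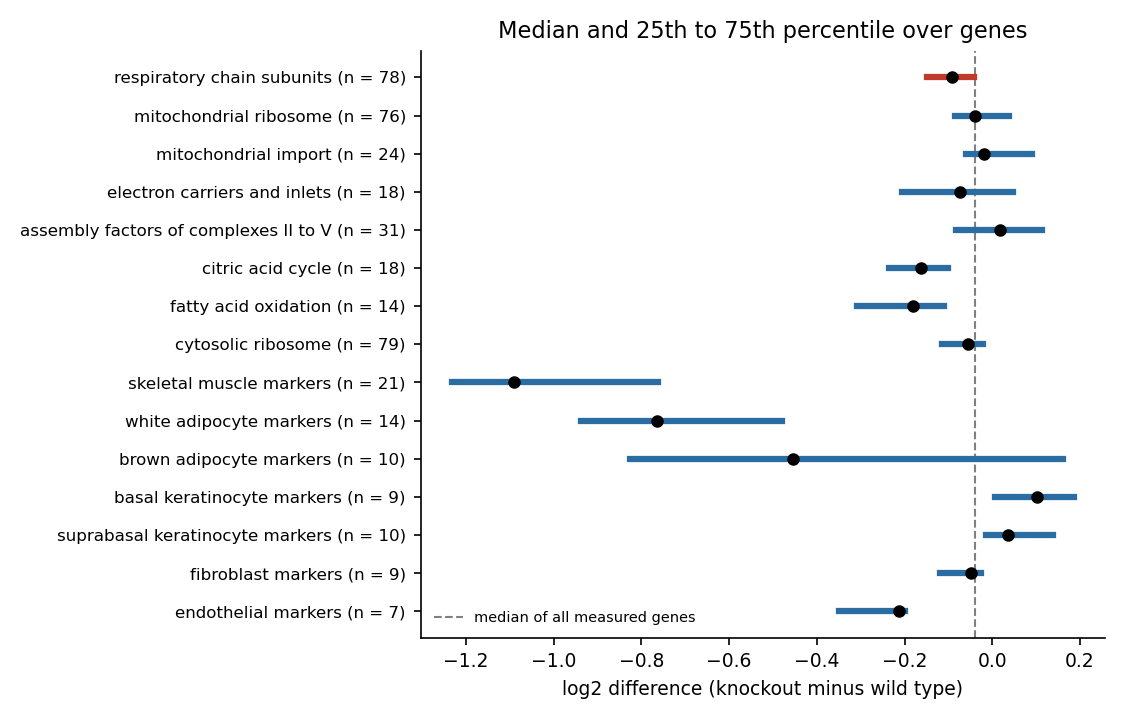
Median (black dot) and 25th to 75th percentile (bar) of the log2 difference over the genes of each list, with the respiratory chain subunits in red and the number of measured genes in brackets. The dashed line is the median of all measured genes. The subunits lie near −0.09, the citric acid cycle and fatty acid oxidation near −0.2, and the skeletal muscle and white adipocyte markers near −1.1 and −0.8.

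Markers of skeletal muscle and white fat were lower on the knockout array, and those of brown fat were split. Of 21 skeletal muscle markers, 20 (95.2%) were at least 1.2-fold lower, beside 19.7% of all genes. Their median was −1.09, and their summed signal went from 326 to 194. Pvalb and Actn3, of fast fibres, stood at −2.26 and −1.52, and Ckm, the muscle creatine kinase, went from 10.5 to 4.49 (−1.23). Only Myh2, a myosin of fast oxidative fibres, lay above 0, at 0.18. White adipocyte markers had a median of −0.76, with 13 of 14 (92.9%) at least 1.2-fold lower. Their summed signal was 137 in wild type and 88.0 in knockout skin. Of 10 brown adipocyte markers 6 (60%) were at least 1.2-fold lower, among them Ppargc1a and Lhx8 (−0.94). At least 1.2-fold higher were 2 (20%), Ucp1 and Elovl3 (0.29), beside 11.5% of all genes. The thermogenic gene Ucp1, which defines brown fat, was dim and read 0.0349 and 0.0457 (0.39), and Cidea stood at −0.05.

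Basal keratinocyte markers had a median of 0.10 over 9, suprabasal markers 0.03 over 10, and fibroblast markers −0.05 over 9. Of these 28 genes 0 were at least 1.2-fold lower, beside 19.7% of all genes. At least 1.2-fold higher were 2, beside 11.5% of all genes, the basal genes Dst (0.47) and Krt15 (0.34). Endothelial markers had a median of −0.21 over 7, with 3 (42.9%) at least 1.2-fold lower, beside 19.7% of all genes. Leukocyte markers had a median of 0.05 over 6, and cycling cell markers 0.13 over 8. Of the cycling cell markers 3 (37.5%) were at least 1.2-fold higher, beside 11.5% of all genes, among them Aurka and Cenpe (0.55 each). The part of muscle and fat in the values of the respiratory chain was not tested. In pooled bulk RNA, fewer cells of a type and less RNA per cell cannot be told apart.

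Promoters of the subunit genes were searched for the motifs of factors known to drive them, in RefSeq promoter sequence (GRCm38.p6) from 250 bases before to 50 after the start of transcription, which was found for 66 of the 80 subunit genes. The palindromic NRF1 motif, in capitals in the sequences printed here, stood in 5 of the 66 (7.58%), against 1.07% of the promoters of 27025 genes. The ETS core CCGGAAG, on either strand, stood in 16 (24.2%), against 9.93%. The YY1 motif stood in 4 (6.06%, against 0.755%), and the oestrogen-related receptor motif TCAAGGTCA in 2 (3.03%, against 0.466%). Both strands were searched, and in no subunit promoter did the matches of different motifs overlap. A match shows letters, not binding. In the log2 difference, the 5 genes with the NRF1 motif had a median of −0.11 and the 60 measured genes without it −0.09. For the ETS core the medians were −0.10 over 16 genes with it and −0.09 over 49 without, and for the YY1 motif −0.09 over 4 and −0.09 over 61. The 2 genes with the oestrogen-related receptor motif, Sdhd and Atp5g3, had a median of −0.16 and the 63 without it −0.09. None of these gaps was tested. Of the 5 with the NRF1 motif, 4 hold it before the start, and they are shown with the motif in capitals and 30 bases in all.
Cox6a1, chr5:115349101-115349130, minus strand: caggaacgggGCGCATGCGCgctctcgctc
Ndufa11, chr17:56717692-56717721, plus strand: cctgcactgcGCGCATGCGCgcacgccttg
Atp5g2, chr15:102671070-102671099, minus strand: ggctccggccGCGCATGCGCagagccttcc
Atp5k, chr5:108434430-108434459, minus strand: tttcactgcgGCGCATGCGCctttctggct
On the arrays these 4 read −0.12 for Cox6a1, −0.16 for Ndufa11, −0.07 for Atp5g2 and −0.01 for Atp5k.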

How the data were processed

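Per the file headers, the authors' scanner files hold the intensity of 44397 spots per array, background-subtracted and detrended within each array. Per the submitters' processing notes, Agilent Feature Extraction 11.5.1.1 was used. Per the labels' protocols, 200 ng of total RNA was labelled with Cy3. The deposited series matrix holds a ratio: the processed intensity over 1 constant per array (1906 and 2080), with median ratios of 0.0855 and 0.0840 and no centring of genes.

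Control spots (1377) and 180 population outliers were left out, spots of a probe averaged, and log2 values scaled by the 75th percentile over 39429 probes. A gene's value is the mean over those of its probes that the scanner software marks as well above background on each array (74.9% of wild type and 76.8% of knockout probes), and 0 spots were saturated. Probes kept the gene names of the scanner files. RefSeq's table (GRCm38.p6) served for chromosomes and updated names. Normexp (offset 50), quantile and loess values came from limma 3.58.1 in R 4.3.3, the rest from Python 3.11.15, checked on simulated data.

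With 1 array per genotype no test was run. Members, gene lists and settings were chosen with earlier results of these data known. The slide areas come from earlier work on these arrays. The rule for values in full took, per complex, the 2 lowest and 2 highest genes, plus core subunits, complex II, paired isoforms, and the F1 and c-ring genes. Of other lists it allowed the 2 lowest and 2 highest genes to be named, and not all were. Cyc1, Cpt1a, Cidea, Ckm, Gabpa, Esrra and some further members were given outside it, after their values were seen. The values of 1 core subunit of complex I are not reported here.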

Additional observations from a re-analysis of the deposited data

How the results depend on the processing

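The median of all members and the medians of complexes I to V kept their direction in every setting, the members between −0.09 and −0.04, with the values nearest 0 under quantile normalization and median scaling. With median scaling 62 members were below 0 (70.5%), beside 49.2% of all genes. The median log2 difference of the complex I assembly factors turned to −0.0026 with normexp correction and −0.061 with the brightest probe per gene, and was 0.026 with brighter probes only. Members at least 1.2-fold higher numbered 3 with normexp correction and with median scaling, 2 with quantile normalization and with loess, and 0 without the marked slide areas. Members at least 1.2-fold lower numbered 3 with no filter on dim probes and 0 without probes on another chromosome, a setting chosen after the data were seen, which removes the only probe of Atp5o. Cox6a2 and Cox7a1 stayed between −1.13 and −1.03. Cox8b lay between −1.11 and −1.07 in the settings that kept it, and has no value without the marked slide areas. With the brightest probe, Cox7c (0.11), Sdhb (0.06), Ndufv3 (−0.03) and Ndufaf5 (−0.10) moved by more than the SD between probes of the members (0.13). Ndufaf5 (−0.09) and Sdr9c7 (−2.05) did so with normexp. The causes were not tested. No paired analysis was possible because each genotype has 1 array. Precision is limited by there being 1 array per genotype.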
